A study of Mus musculus with 6 samples.

Results

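Inhibitory checkpoint genes encode surface receptors that restrain activated T cells, together with a ligand of such a receptor. The set followed here has 9 genes, chosen by name, of the 49671 genes in the tables: Pdcd1, Ctla4, Lag3, Havcr2, Tigit, Btla, Cd160, Cd96 and Cd274. The products of Ctla4 and Pdcd1 belong to the CD28 family of receptors, and the product of Cd274 is the ligand PD-L1 that engages the Pdcd1 product. Tigit and Cd96 bind nectin-like ligands such as the Pvr product and share them with the activating receptor of Cd226, while Btla and Cd160 bind the herpesvirus entry mediator encoded by Tnfrsf14. Many of these receptors are low or absent on resting T cells, are induced by antigen receptor signalling, and stay high on chronically stimulated T cells.

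RNA was sequenced from splenic CD3+ T cells of female F1 mus x cast mice, isolated on enrichment columns. The stimulated group had 3 libraries from cells cultured for 48 h on a plate coated with anti-CD3 at 1 µg/ml, with anti-CD28 in solution at 10 µg/ml; the pair engages the antigen receptor and CD28. The unstimulated group had 3 libraries from cells put into TRIzol straight after isolation, without culture, so stimulation and 48 h of culture cannot be told apart. In both groups the mothers were C57BL/6 (mus) females heterozygous for an Xist deletion and the fathers were M. m. castaneus (cast) males, a cross in which inactivation of the X is skewed. All 9 genes lie on autosomes, where each F1 cell holds a cast and a mus copy. Age is not given in the sources used here, and the labels call the libraries biological replicates without saying which animals they came from.

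Levels of both alleles together were given as RPKM (reads scaled to gene length and library depth), and allelic reads were given as counts of cast and of mus reads per gene. Allelic reads numbered 14905853 to 20249376 per stimulated library and 9606755 to 11893039 per unstimulated library. On the autosomes together, cast made up 49.3% to 49.4% of them in each library. T cell markers were present in both groups, with a summed level of 1601 to 1660 RPKM in stimulated and 1704 to 2099 RPKM in unstimulated libraries. Of 14 T cell markers tested 1 rose, 8 fell and 5 did not pass. Markers of other spleen cells were present in the unstimulated libraries and lower after stimulation: of those tested, 11 of 12 B cell, 12 of 12 myeloid, 7 of 8 dendritic, 9 of 10 NK and 7 of 8 erythroid and platelet genes fell. Among them 1 dendritic and 1 NK cell gene rose. These counts are partly built into the filter described next, whose level many of these genes reached in all unstimulated but not all stimulated libraries. They were 5 B cell, 11 myeloid, 7 dendritic, 3 NK and 7 erythroid and platelet genes. Summed levels describe the markers of each cell type better. Myeloid markers summed to 1237 to 3487 RPKM unstimulated, reaching above the T cell markers, and to 5.91 to 9.56 RPKM stimulated. The unstimulated myeloid sum was mostly Lyz2 (812 ± 295 RPKM), S100a9 (575 ± 482 RPKM) and S100a8 (435 ± 379 RPKM). Each other myeloid marker had an unstimulated mean no higher than that of Mpeg1 (105 ± 21.2 RPKM). Erythroid and platelet markers summed to 82.7 to 1342 RPKM unstimulated and 2.32 to 15.4 RPKM stimulated. B cell markers summed to 450 to 782 RPKM unstimulated and 53.8 to 92.0 RPKM stimulated. The unstimulated libraries therefore did not hold RNA of T cells alone. In bulk samples fewer cells of a type and less RNA per cell cannot be told apart.

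All 9 genes were expressed above the filter used for testing, 1 RPKM or more in 3 or more libraries, and all 9 changed with stimulation. Lag3, Ctla4, Tigit, Pdcd1 and Cd274 rose, and Cd96, Cd160, Havcr2 and Btla fell (limma, Benjamini-Hochberg adjusted p under 0.05). The count says little about these genes in particular, since 80.1% of the 13288 genes tested passed, 31.2% higher and 48.9% lower. RPKM values of the groups did not overlap for any of the 9, against 83.5% of genes tested. Sizes set them apart more than calls do: the rise of Lag3 was the 21st largest of 13288 and that of Ctla4 the 73rd, while 70.0% of tested genes changed more than Btla in either direction. Each log2 fold change is the stimulated minus the unstimulated mean of log2(RPKM + 1), a scale that understates changes of low genes. The median gene moved by -0.24 on that scale, and median centring or quantile normalisation kept the direction and the call of all 9 genes.

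**Figure D1:**
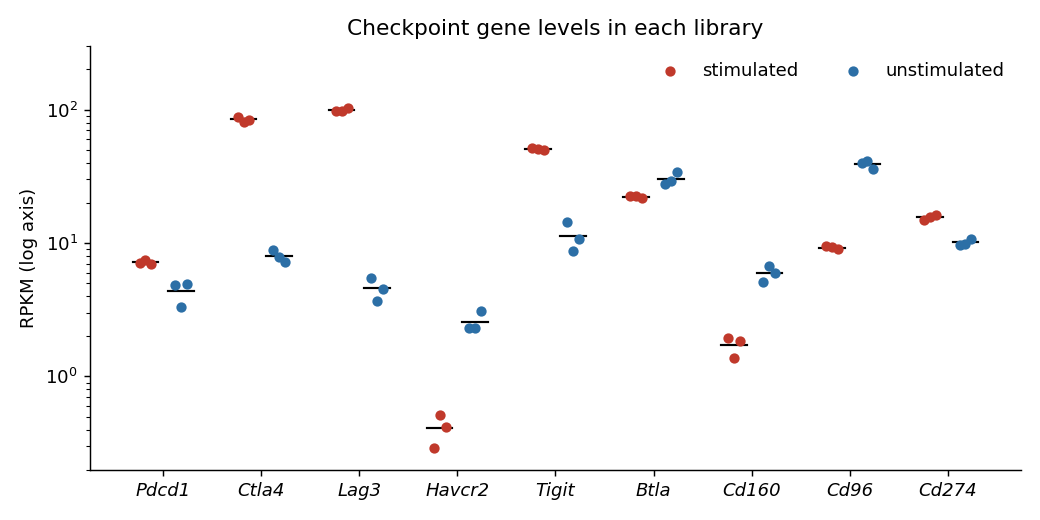
RPKM on a log axis of the 9 genes in each of 3 stimulated and 3 unstimulated libraries, with black bars at the group means. Lag3 and Ctla4 lie above 80 RPKM in stimulated libraries and below 10 RPKM in unstimulated ones, and Havcr2 is below 1 RPKM after stimulation.

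Promoter windows are shown for the genes with a rise of at least 4-fold and for those whose allelic share changed. RefSeq windows on GRCm38.p6 were matched for 8 of the 9 genes, Lag3 being without an entry. Each sequence below is the 250 bases before the RefSeq start of the C57BL/6J reference, which is the mus side of the cross, 5′ to 3′ on the gene's strand. The Ctla4 window lies inside the GENCODE span of that gene (60887000 to 60915832), whose start is upstream of the RefSeq start. Capitals mark matches, on either strand, to GGAAA (the core bound by NFAT factors), TGANTCA (AP-1) or GGG, any 5 bases and CC (NF-kB).
Ctla4, chr1:60908775-60909024, plus strand: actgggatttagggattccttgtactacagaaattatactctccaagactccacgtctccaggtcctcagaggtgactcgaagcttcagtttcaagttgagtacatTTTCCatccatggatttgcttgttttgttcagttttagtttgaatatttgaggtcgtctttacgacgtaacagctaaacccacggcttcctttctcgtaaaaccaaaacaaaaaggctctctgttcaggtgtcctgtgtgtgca
Tigit, chr16:43664185-43664434, minus strand: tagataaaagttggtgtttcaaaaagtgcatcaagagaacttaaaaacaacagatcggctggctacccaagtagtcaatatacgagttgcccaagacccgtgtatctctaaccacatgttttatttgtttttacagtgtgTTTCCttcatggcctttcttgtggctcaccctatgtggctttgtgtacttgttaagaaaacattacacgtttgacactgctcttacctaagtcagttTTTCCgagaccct
Cd274, chr19:29367188-29367437, plus strand: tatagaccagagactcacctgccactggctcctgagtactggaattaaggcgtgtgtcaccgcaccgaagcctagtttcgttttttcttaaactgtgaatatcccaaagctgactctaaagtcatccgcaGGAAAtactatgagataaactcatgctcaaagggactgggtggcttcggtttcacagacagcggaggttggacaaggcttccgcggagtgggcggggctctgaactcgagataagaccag
Btla, chr16:45224087-45224336, plus strand: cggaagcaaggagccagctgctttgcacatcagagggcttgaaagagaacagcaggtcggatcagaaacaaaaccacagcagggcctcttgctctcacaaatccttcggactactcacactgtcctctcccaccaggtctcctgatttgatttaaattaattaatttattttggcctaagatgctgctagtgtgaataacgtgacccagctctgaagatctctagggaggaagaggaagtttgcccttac
Cd96, chr16:46120249-46120498, minus strand: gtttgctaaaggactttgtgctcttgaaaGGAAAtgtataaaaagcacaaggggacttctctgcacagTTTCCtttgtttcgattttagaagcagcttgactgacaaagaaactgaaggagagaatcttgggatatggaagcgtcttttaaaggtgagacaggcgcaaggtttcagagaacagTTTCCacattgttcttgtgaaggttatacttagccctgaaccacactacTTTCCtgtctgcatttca
Havcr2, chr11:46454681-46454930, plus strand: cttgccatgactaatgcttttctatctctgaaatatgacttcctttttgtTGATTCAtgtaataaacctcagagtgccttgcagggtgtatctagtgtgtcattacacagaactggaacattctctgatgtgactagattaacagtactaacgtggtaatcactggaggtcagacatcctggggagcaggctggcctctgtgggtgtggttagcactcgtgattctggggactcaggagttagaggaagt

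GGAAA matched 4 times in the Cd96 window, 2 times in that of Tigit and once each in those of Ctla4 and Cd274, and 55.6% of the 32851 promoters in the table hold it. The AP-1 motif matched in the Havcr2 window and is held by 6.75% of promoters. The NF-kB motif, held by 45.8%, matched in none of the 6 windows shown, and the Btla window matched no motif. These matches are letters in a window and say nothing of binding.

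Ctla4, whose product outcompetes CD28 for the ligands CD80 and CD86, is a gene of 28833 bases on the plus strand of chromosome 1 (mm10, 60887000 to 60915832). It had 88.2, 81.0 and 84.0 RPKM in the stimulated libraries, against 8.92, 7.80 and 7.21 RPKM in the unstimulated ones. Every stimulated library stood about an order of magnitude above every unstimulated one. The mean was 84.4 ± 3.60 RPKM stimulated and 7.98 ± 0.872 RPKM unstimulated (SD, n = 3 each), a 10.6-fold rise (log2 fold change 3.25, SE 0.08, limma adjusted p = 5.99e-07). Cd28, the activating receptor it competes with, had 16.7 ± 0.210 RPKM stimulated and 18.2 ± 2.31 RPKM unstimulated (log2 -0.11, limma adjusted p = 0.305). The ratio of Ctla4 to Cd28 RPKM was therefore 5.06 ± 0.226 in stimulated and 0.441 ± 0.0455 in unstimulated libraries (SD, n = 3 each). Regulatory T cells hold CTLA4 at rest, and their defining gene Foxp3 stood at 0.563 ± 0.159 RPKM stimulated and 6.50 ± 0.422 RPKM unstimulated. Of 9 tested regulatory T cell markers 5 rose, Il2ra among them, and 4 fell. Of those that fell 3, Foxp3 included, passed the filter only through the unstimulated libraries. The part of regulatory T cells in the level of Ctla4 was not tested.

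Pdcd1, the gene of the receptor PD-1, which recruits phosphatases to the antigen receptor, lies on the minus strand of chromosome 1 (94038305 to 94052553). It had 7.05, 7.46 and 6.93 RPKM in stimulated libraries, against 4.83, 3.32 and 4.96 RPKM in unstimulated ones. The values did not overlap, but the rise of 1.64-fold was modest (log2 0.62, SE 0.13, limma adjusted p = 0.00461). On summed allelic counts it was larger, at log2 1.08 with edgeR (adjusted p = 0.00089). Cd274, the gene of its ligand PD-L1 (chromosome 19, plus strand, 29367455 to 29388095), had 14.9, 15.6 and 16.3 RPKM stimulated, against 9.72, 9.89 and 10.8 RPKM unstimulated. That is a 1.54-fold rise (log2 0.58, SE 0.07, limma adjusted p = 0.000201), or log2 1.07 on summed allelic counts with edgeR (adjusted p = 2.41e-06). An antisense gene overlaps exons of Cd274, and the strand setting of the counting is not given, so its reads cannot be told apart from those of Cd274. The neighbouring gene Pdcd1lg2, which encodes the other PD-1 ligand, rose to 11.9 ± 0.0774 RPKM in stimulated libraries, against 1.72 ± 0.437 RPKM in unstimulated ones (log2 2.26, limma adjusted p = 7.52e-06). Myeloid cells also express Cd274. Their 12 markers summed to 5.91 to 9.56 RPKM in stimulated and 1237 to 3487 RPKM in unstimulated libraries, the latter mostly Lyz2, S100a9 and S100a8. Adgre1 was at 0 in all stimulated libraries. The part of myeloid cells in the level of Cd274 was not tested.

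Lag3 encodes a relative of CD4 that binds MHC class II molecules, and it had the largest rise of the 9 genes. It spans 7345 bases on the minus strand of chromosome 6 (124904361 to 124911705). Its level was 98.3, 98.1 and 103 RPKM in stimulated libraries, against 5.49, 3.67 and 4.53 RPKM in unstimulated ones. Every stimulated library was far above every unstimulated one. The rise was 21.9-fold (log2 4.19, SE 0.12, limma adjusted p = 8.25e-07). Cd4 itself, 16140 bases away, fell to 39.5 ± 2.81 RPKM in stimulated cells, against 58.4 ± 6.11 RPKM in unstimulated cells (log2 -0.55, limma adjusted p = 0.00138). The ratio of Lag3 to Cd4 was 2.53 ± 0.115 stimulated and 0.0791 ± 0.0191 unstimulated.

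The pair of nectin-binding receptors went opposite ways. Tigit (chromosome 16, minus strand, 43648867 to 43664146) had 51.8, 50.9 and 49.7 RPKM in stimulated libraries, against 14.4, 8.69 and 10.7 RPKM in unstimulated ones. Unstimulated replicate 1 was the highest of its group, and still far below every stimulated library. The rise was 4.50-fold (log2 2.10, SE 0.16, limma adjusted p = 3.05e-05). Cd96 (chromosome 16, minus strand, 46035657 to 46120251) had 9.42, 9.32 and 8.98 RPKM stimulated, against 39.8, 40.9 and 35.6 RPKM unstimulated. It was thereby the highest of the 9 genes at rest and 4.20-fold lower after stimulation (log2 -1.96, SE 0.07, limma adjusted p = 1.66e-06), the largest fall of the set on the log2 scale used. Cd226, the activating receptor for the same ligands, fell to 16.0 ± 2.31 RPKM in stimulated cells, against 37.4 ± 0.927 RPKM in unstimulated cells (log2 -1.18, limma adjusted p = 5.05e-05). The Tigit to Cd226 ratio was 3.21 ± 0.396 stimulated and 0.302 ± 0.0765 unstimulated, and the Cd96 to Cd226 ratio 0.584 ± 0.0699 stimulated and 1.04 ± 0.0497 unstimulated (SD, n = 3 each).

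The receptors for the herpesvirus entry mediator were lower after stimulation. Btla (chromosome 16, plus strand, 45224315 to 45257670), whose product is also carried by B cells, had 22.6, 22.4 and 21.7 RPKM in stimulated libraries, against 27.6, 29.0 and 34.2 RPKM in unstimulated ones. Unstimulated replicate 3 was the highest. The fall was 1.36-fold (log2 -0.42, SE 0.09, limma adjusted p = 0.00326), against a shift of -0.24 for the median gene. It was -0.16 after median centring and -0.44 after quantile normalisation, and passed under both. On summed allelic counts it was -0.07 with edgeR (adjusted p = 0.48) and -0.10 with DESeq2 (adjusted p = 0.401), where it did not pass. The 12 B cell markers summed to 53.8 to 92.0 RPKM in stimulated and 450 to 782 RPKM in unstimulated libraries. None of them was at 0 in all stimulated libraries. The part of B cells in the level of Btla was not tested.

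Cd160, a receptor of cytotoxic lymphocytes (chromosome 3, minus strand, 96798763 to 96829351), had 1.94, 1.38 and 1.83 RPKM in stimulated libraries, against 5.14, 6.76 and 5.93 RPKM in unstimulated ones. It was 3.46-fold lower after stimulation (log2 -1.35, SE 0.13, limma adjusted p = 7.34e-05). Pdzk1 overlaps Cd160 exons on the other strand and reached at most 0.0935 RPKM in any library. Their ligand gene Tnfrsf14 fell to 19.0 ± 0.433 RPKM in stimulated cells, against 57.9 ± 5.22 RPKM in unstimulated cells (log2 -1.55, limma adjusted p = 4.8e-06). NK cells express Cd160, Cd96 and Tigit. The 10 NK markers summed to 259 to 284 RPKM stimulated and 502 to 676 RPKM unstimulated, the stimulated sum being mostly Gzma (245 ± 8.11 RPKM), while the NK receptor gene Ncr1 stood at 0.705 ± 0.216 RPKM stimulated and 46.2 ± 7.79 RPKM unstimulated; their part in Cd160 and Cd96 was not tested.

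Havcr2, the gene of TIM-3 (chromosome 11, plus strand, 46454935 to 46481255), was the lowest of the 9 genes in both groups. Its level was 0.291, 0.516 and 0.416 RPKM in stimulated libraries, against 2.32, 2.32 and 3.07 RPKM in unstimulated ones. It was 6.31-fold lower after stimulation (log2 -1.34, SE 0.12, limma adjusted p = 5.88e-05). The gene entered the test only through its unstimulated libraries, so a difference was built into its selection. Its log2 value ranged with the setting, from -2.41 with a pseudocount of 0.1 to -0.68 after quantile normalisation. TIM-3 is carried by myeloid and dendritic cells as well as by T cells. The 8 dendritic cell markers summed to 28.6 to 30.4 RPKM stimulated and 36.0 to 48.1 RPKM unstimulated, but the stimulated sum was mostly Batf3, at 28.4 ± 1.23 RPKM stimulated and 1.82 ± 0.442 RPKM unstimulated. The other 7 markers summed to 1.06 to 1.62 RPKM stimulated and 34.5 to 45.8 RPKM unstimulated, with Xcr1, Clec9a, Siglech and Cd209a at 0 in all stimulated libraries; the part of these cells in Havcr2 was not tested.

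**Figure D2:**
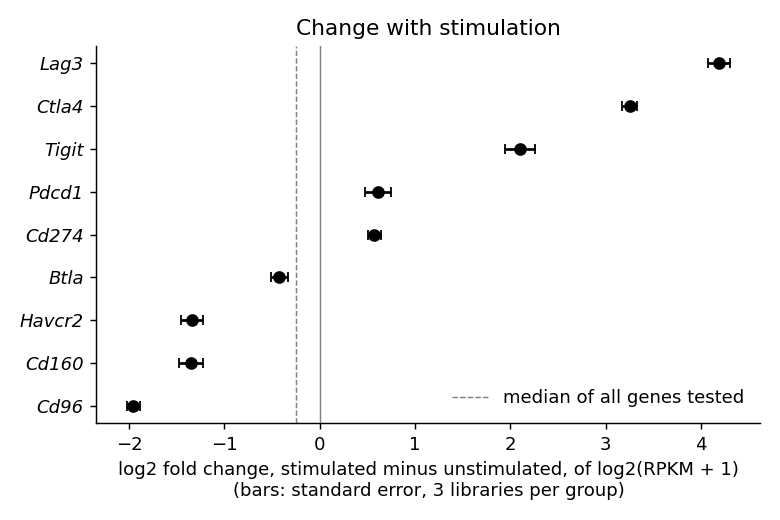
Log2 fold change with stimulation (difference of mean log2(RPKM + 1), stimulated minus unstimulated) of the 9 genes, with bars for the standard error over 3 libraries per group and a dashed line at the median of all genes tested (-0.24). Values run from 4.19 for Lag3 to -1.96 for Cd96, and Btla lies nearest the dashed line.

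The order of levels turned over. In stimulated cells it ran Lag3, Ctla4, Tigit, Btla, Cd274, Cd96, Pdcd1, Cd160 and Havcr2, and no neighbours in that order overlapped over the 3 libraries. In unstimulated cells it ran Cd96, Btla, Tigit, Cd274, Ctla4, Cd160, Lag3, Pdcd1 and Havcr2, where Tigit and Cd274, Cd160 and Lag3, and Lag3 and Pdcd1 overlapped. The 9 genes summed to 287 to 294 RPKM in stimulated libraries, against 112 to 118 RPKM in unstimulated ones. Lag3 made up 33.4% to 35.1% of the stimulated sum and 3.26% to 4.64% of the unstimulated sum, and Cd96 made up 3.07% to 3.25% of the stimulated sum and 30.4% to 36.4% of the unstimulated sum. By the root mean square difference of centred log2(RPKM + 1) over the 6 libraries, the genes most like Lag3 among 13287 others were Zbtb32 (0.120), Tg (0.129) and Psat1 (0.134). Those most like Cd96 were Macf1 (0.0419), 5031425E22Rik (0.0462) and Gm42907 (0.0468).

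Other genes of the pathway are set beside the 31.2% of all tested genes that rose and the 48.9% that fell, a split that leans to higher calls after median centring, where 51.1% of calls were higher. Of 16 tested ligands and costimulatory counterparts 3 rose, 10 fell and 3 did not pass (median log2 -0.74, against -0.24 over all genes). Of the 10 that fell, 5 (Cd80, Cd86, Icosl, Nectin1 and Ceacam1) reached 1 RPKM in all unstimulated but not all stimulated libraries. Their selection therefore favoured a fall. Icos, an inducible costimulatory receptor next to Ctla4, rose most (log2 3.69, limma adjusted p = 3.92e-07), followed by Pdcd1lg2, and Ceacam1, a TIM-3 ligand (-3.23), and Icosl, the ICOS ligand (-2.43), fell most. Fgl1, a ligand of the Lag3 product, and Vtcn1 were listed at 0 in all 6 libraries. Of 14 tested other inhibitory receptors and ectoenzymes 3 rose and 11 fell (median -1.62). Cd200 (log2 2.73) and Cd6 (0.80) rose, while Slamf6 (-3.19) and Vsir, the gene of the checkpoint receptor VISTA (-2.82), fell most. Of the 11 that fell, 6 (Lair1, Klrg1, Cd244a, Slamf6, Cd101 and Nt5e) reached 1 RPKM in all unstimulated but not all stimulated libraries. The filter therefore favoured a fall for these. Vsir stood at 9.75 ± 0.859 RPKM in stimulated cells and 74.9 ± 1.76 RPKM in unstimulated cells (SD, n = 3 each).

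Inside the cell, of 16 phosphatases and adaptors of inhibition 4 rose, 8 fell and 4 did not pass (median log2 -0.22), close to the shares and the median of all genes. Ptpn2, a phosphatase of cytokine signalling (1.38), and Bag6, which binds the TIM-3 tail (0.32), rose most, and the adaptors Lax1 (-2.54) and Pag1 (-2.05) fell most. Ptpn11, the phosphatase that PD-1 recruits, had a log2 value of 0.16 (limma adjusted p = 0.0582). Of 8 genes for trafficking, turnover and shedding 2 rose and 6 fell (median -0.48): Cmtm4, a stabiliser of PD-L1 (0.93), and Def6 (0.19) rose, and Trat1 (-2.81), whose product helps CTLA4 reach the surface, and Adam17 (-0.73), a protease that sheds LAG3, fell most. Of 15 tested transcription factors tied to exhaustion 5 rose, 9 fell and 1 did not pass (median -0.63). Irf4 (log2 3.74) and Nr4a3 (2.21) rose most, while Tox (-2.77) and Bcl6 (-2.73) fell most, Tox standing at 0.374 ± 0.058 RPKM stimulated and 8.40 ± 0.43 RPKM unstimulated. Both Tox and Bcl6 passed the filter only through the unstimulated libraries, so their fall was built into their selection.

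Allelic reads were used to compare the cast and the mus copies of each gene between the groups. Markers of other cells also differed between the groups. A changed share within T cells and a change in the cells supplying the reads therefore cannot be told apart. The cast share of allelic reads changed with stimulation for 4 of the 9 genes, Cd274, Btla, Cd96 and Havcr2 (edgeR, allele by group interaction, adjusted over 12470 autosomal genes), against 10.9% of all genes tested. Reads departed from equal parts for 6 of 9 genes in stimulated cells, against 35.9% of all genes, and for 3 of 9 in unstimulated cells, against 30.8%. With a term for the replicate number these counts were 7 and 4, the addition being Pdcd1 in each group. Intervals of single libraries below are 95% exact Clopper-Pearson intervals and cover counting error only. The way reads were assigned to alleles is not stated in the labels.

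**Figure D3:**
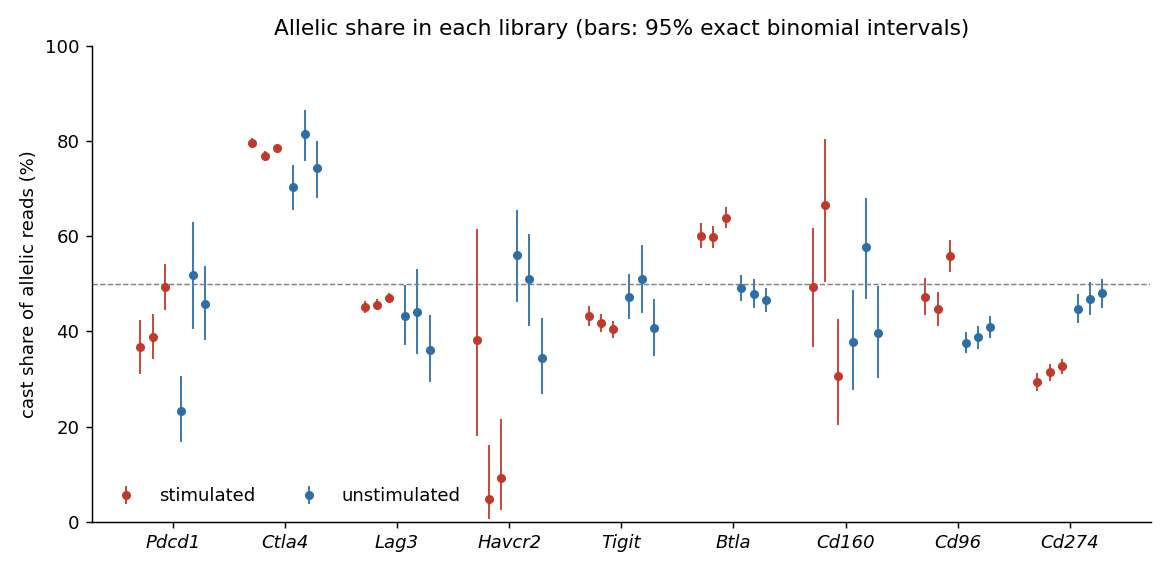
Cast share (%) of allelic reads of the 9 genes in each of 3 stimulated and 3 unstimulated libraries, with 95% exact binomial intervals and a dashed line at equal shares. Ctla4 lies above 70% in all 6 libraries, and the stimulated and unstimulated shares are apart for Cd274, Btla, Cd96 and Lag3.

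Cd274 leaned a little to mus at rest, where a departure from equal reads did not pass (edgeR adjusted p = 0.0597). After stimulation it was read mostly from mus. Its cast reads were 652, 843 and 1039 of 2221, 2688 and 3185 allelic reads in the stimulated libraries, against 446, 379 and 511 of 996, 808 and 1065 in the unstimulated ones. The cast share was thus 31.1% ± 1.65 stimulated and 46.6% ± 1.63 unstimulated (SD, n = 3 each), lower in all 3 same-numbered pairs, by 15.4 to 15.5 percentage points. The log2 ratio of cast to mus differed by -0.95 between the groups (edgeR adjusted p = 1.54e-05). Scaled to all allelic reads of a library (RPM), mus Cd274 stood at 104.5 ± 1.95 stimulated and 46.0 ± 1.27 unstimulated, while cast Cd274 stood at 47.3 ± 3.81 stimulated and 40.2 ± 3.06 unstimulated.

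Btla shifted the other way. Cast reads were 838, 991 and 1162 of 1394, 1656 and 1819 in stimulated libraries, against 612, 509 and 710 of 1246, 1063 and 1523 in unstimulated ones. Its cast share was 61.3% ± 2.26 stimulated and 47.9% ± 1.25 unstimulated, with no overlap and a log2 change of the ratio of 0.79 (edgeR adjusted p = 0.00016). Mus Btla was at 35.5 ± 2.69 RPM stimulated and 60.1 ± 8.21 RPM unstimulated, while cast Btla was at 56.2 ± 1.22 RPM stimulated and 55.0 ± 4.81 RPM unstimulated. Of the 2 alleles only mus Btla was lower after stimulation. The B cell markers named above were also lower, and the part of B cells in the share of Btla was not tested.

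Cd96 was read less from cast at rest and about evenly after stimulation. Cast reads were 313, 340 and 491 of 662, 762 and 880 in stimulated libraries, against 756, 604 and 693 of 2009, 1559 and 1693 in unstimulated ones. The cast share was 49.2% ± 5.84 stimulated and 39.1% ± 1.68 unstimulated (log2 change of the ratio 0.60, edgeR adjusted p = 0.0135). Stimulated replicate 3, at 55.8%, was the highest, and the change did not pass without it (adjusted p = 0.0626) or without unstimulated replicate 1 (adjusted p = 0.0716). Both alleles were lower after stimulation, cast Cd96 at 21.4 ± 2.72 RPM stimulated and 61.8 ± 2.47 RPM unstimulated, and mus Cd96 at 22.01 ± 2.42 RPM stimulated and 96.6 ± 10.4 RPM unstimulated.

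Among the 4 genes whose share changed, Havcr2 had the widest difference and the fewest reads. Of 21, 42 and 44 allelic reads in the stimulated libraries 8, 2 and 4 were cast, shares of 38.1% (18.1% to 61.6%), 4.76% (0.582% to 16.2%) and 9.09% (2.53% to 21.7%). In the unstimulated libraries 61, 56 and 51 of 109, 110 and 148 reads were cast, shares of 56.0% (46.1% to 65.5%), 50.9% (41.2% to 60.6%) and 34.5% (26.8% to 42.7%). The lowest unstimulated share lay below the highest stimulated one, so the groups overlapped. The log2 ratio differed by -2.42 (edgeR adjusted p = 0.0383), and this did not pass without unstimulated replicate 1 or 2 or without stimulated replicate 2 or 3 (adjusted p = 0.124, 0.102, 0.159 and 0.15).

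**Figure D4:**
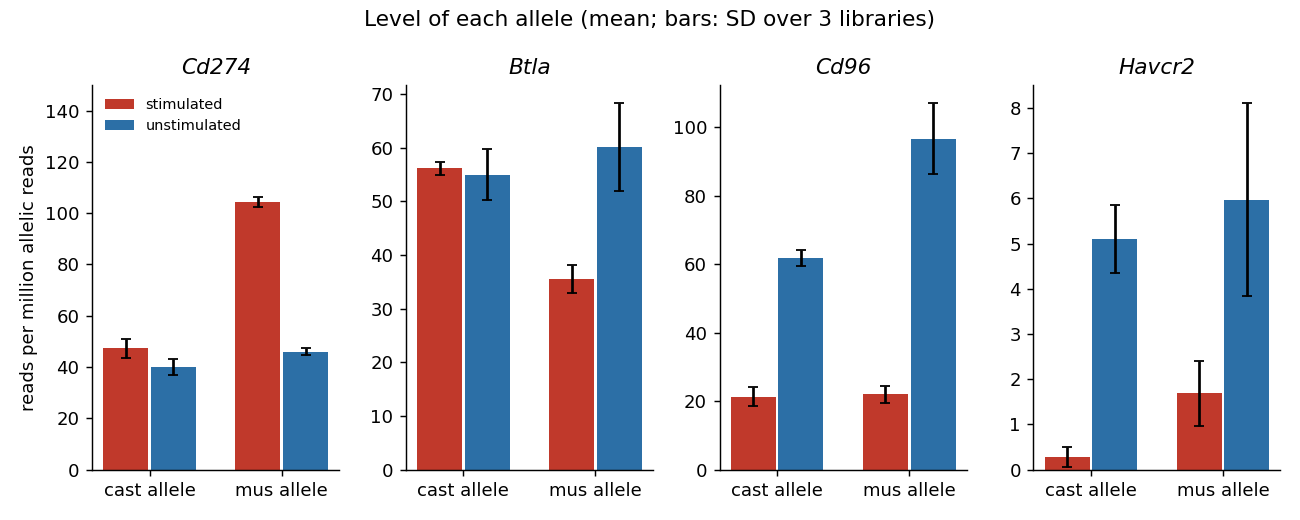
Allelic reads scaled to library depth (RPM; mean, bars SD over 3 libraries) of the cast and mus alleles of the 4 genes whose cast share changed, in stimulated and unstimulated cells. Mus Cd274 is at 104.5 in stimulated and 46.0 in unstimulated cells, while cast Cd274 is at 47.3 in stimulated and 40.2 in unstimulated cells and cast Btla is at 56.2 in stimulated and 55.0 in unstimulated cells.

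Ctla4 leaned to cast in every library. Cast reads were 4625, 4900 and 5813 of 5803, 6378 and 7402 in stimulated libraries, against 262, 177 and 163 of 372, 217 and 219 in unstimulated ones. The cast share was 78.4% ± 1.45 stimulated and 75.5% ± 5.64 unstimulated, a departure from equal reads in both groups (edgeR adjusted p = 6.12e-11 stimulated and 1.48e-07 unstimulated). A change of the share did not pass (log2 0.28, edgeR adjusted p = 0.305), with differences of -4.74 to 9.27 points in the same-numbered pairs. It did pass without unstimulated replicate 2 (log2 0.49, adjusted p = 0.031). Cast and mus Ctla4 were both higher after stimulation, at 290 ± 19.4 RPM stimulated and 18.1 ± 4.09 RPM unstimulated for cast and 79.8 ± 1.87 RPM stimulated and 6.06 ± 2.78 RPM unstimulated for mus.

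Lag3 leaned slightly to mus in both groups, and Tigit did so in stimulated cells. The cast share of Lag3 was 45.9% ± 1.04 stimulated and 41.2% ± 4.37 unstimulated, over 21837 and 569 allelic reads in all. It departed from equal reads in both groups (edgeR adjusted p = 0.00493 stimulated and 0.00116 unstimulated; 0.0602 stimulated without stimulated replicate 1), and a change did not pass (log2 0.28, adjusted p = 0.155) although its shares did not overlap, as for 28.3% of genes tested. For Tigit the cast share was 41.8% ± 1.41 stimulated and 46.3% ± 5.21 unstimulated. It departed from equal reads in stimulated cells (edgeR adjusted p = 0.000453), and a departure did not pass in unstimulated cells (adjusted p = 0.168). A change of the share did not pass either (log2 -0.26, adjusted p = 0.319).

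The shares of Pdcd1 and Cd160 scattered between libraries. Pdcd1 had a cast share of 41.6% ± 6.77 stimulated and 40.3% ± 15.1 unstimulated. Unstimulated replicate 1 stood apart at 23.2% (16.8% to 30.7%) of 155 reads, against 51.8% (40.6% to 62.9%) of 83 and 45.8% (38.1% to 53.7%) of 168 in replicates 2 and 3. Neither a departure (edgeR adjusted p = 0.141 stimulated and 0.115 unstimulated) nor a change of the share (log2 0.15, adjusted p = 0.874) passed. With the replicate number as a block the departures passed (adjusted p = 0.0335 stimulated and 0.0259 unstimulated). So did the stimulated departure without unstimulated replicate 1 (adjusted p = 0.0497) and the unstimulated one without unstimulated replicate 2 (adjusted p = 0.048). Cd160 had 48.8% ± 18.1 stimulated and 45.1% ± 11.1 unstimulated over 181 and 286 reads, and no test of it passed (adjusted p = 0.832, 0.614 and 0.925 for stimulated, unstimulated and the change). The mean shares differed by 3.77 points for Cd160 and 1.30 points for Pdcd1, less than the spread between libraries.

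Neighbours on the pathway lists, within 500000 bases of a member, showed whether a leaning was shared along the chromosome. On chromosome 1, Cd28 and Icos flank Ctla4 and also leaned to cast. Icos stood at 95.7% ± 0.383 stimulated and 65.98% ± 2.67 unstimulated, and Cd28 at 78.5% ± 0.764 stimulated and 66.4% ± 2.64 unstimulated (SD, n = 3 each). Both changed with stimulation (log2 change of the ratio 3.54 for Icos, edgeR adjusted p = 2.94e-11, and 0.89 for Cd28, adjusted p = 6.03e-06), so all 3 receptors of this cluster were read mostly from cast in both groups. Near Cd274 the leaning was not shared: Pdcd1lg2 stood at 70.8% ± 1.65 stimulated and 51.9% ± 17.2 unstimulated, the last over 157 reads, and its change did not pass (edgeR adjusted p = 0.0919). Near Btla, Cd200r1 stood at 83.2% ± 2.40 stimulated and 41.8% ± 2.96 unstimulated (edgeR adjusted p = 1.25e-05), and Cd200 at 62.6% ± 3.21 stimulated and 52.0% ± 5.99 unstimulated (adjusted p = 0.178). Near Lag3, Cd4 stood at 52.1% ± 0.954 stimulated and 53.3% ± 1.40 unstimulated (adjusted p = 0.618), and Ptpn6 at 52.2% ± 2.86 stimulated and 48.3% ± 2.33 unstimulated (adjusted p = 0.215). Nectin3, near Cd96, had 50 and 6 allelic reads in all and was not tested.

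**Figure D5:**
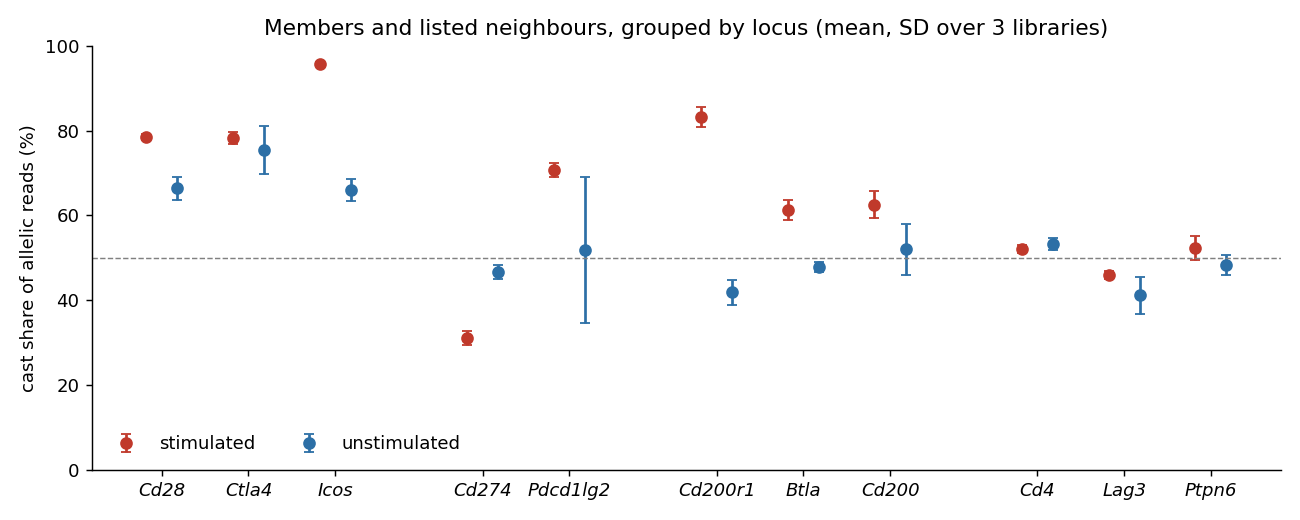
Mean cast share (%) with SD over 3 libraries of members and of listed genes within 500000 bases of them, grouped by locus, in stimulated and unstimulated cells. Cd28, Ctla4 and Icos lie above 60% in both groups, while Cd274 and Pdcd1lg2 lie on opposite sides of the dashed line at equal shares after stimulation.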

How the data were processed

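The authors deposited RPKM per gene and library, and whole-number counts of cast and mus reads per gene and library, per the file headers. STAR 2.7.1a, featureCounts and mm10 are named in the submitters' processing notes; for annotation, gene lengths, strand setting and allele assignment, the methods were not given in the sources used here. Positions come from GENCODE M21 (mm10), matched by identifier for 99.3% of genes. Libraries were grouped by their titles. The members and lists were chosen with earlier results of these data known. Cd4, Ikzf2 and Eomes stand on 2 lists each, Cd244a was matched through its RefSeq synonym, and Pvrig was not matched.

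RPKM was tested with limma 3.58.1 (two-sided, variance trend) in R 4.3.3 after adding 1 and taking log2, keeping genes that reached 1 RPKM in 3 or more libraries. For counts, the two-sided quasi-likelihood test of edgeR 4.0.16 was used with a term per library and an allele term per group, keeping autosomal genes whose allelic reads summed to 30 or more in each group. The Benjamini-Hochberg adjustment ran over every gene tested, and calls were made at 0.05. The p-values weigh each difference against the spread between these libraries, a spread estimated partly from all genes tested. DESeq2 1.42.0, other pseudocounts, filters and scalings, and leaving out each library were alternatives. Named genes were all members, the 2 largest rises and falls of each pathway list, listed genes within 500000 bases of a member (a distance set after the files were seen), and the 3 genes most like the members of largest rise and fall. Cd28, Cd226, Tnfrsf14, Ptpn11, Foxp3, Il2ra, Lyz2, S100a8, S100a9, Mpeg1, Gzma, Ncr1, Batf3 and the genes listed for how they passed the filter were named after their values were seen. RPM, computed here from the counts, has the total of all allelic reads of a library as its denominator. Scripts were tested on simulated data. Allelic ratios linked libraries of equal replicate number, but the labels do not state a pairing. Over 9043 autosomal genes, each with 50 or more allelic reads in every library, log2 ratios of cast to mus were centred in each group. They correlated at 0.28, 0.30 and 0.18 between equal numbers and at -0.22 to -0.07 between unequal ones. Diploid levels correlated at 0.00603, 0.0611 and 0.0908 between equal numbers and at -0.098 to 0.069 between unequal ones. The main tests did not use the replicate number, which entered only as a block among the alternatives.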

Additional observations from a re-analysis of the deposited data

Results flagged for a closer look

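The balance of the alleles differed between stimulated and unstimulated cells for 4 of the 9 genes, by the edgeR test of the interaction of allele and group (adjusted p under 0.05). The log2 change of the cast to mus ratio was -0.95 for Cd274, 0.79 for Btla, 0.60 for Cd96 and -2.42 for Havcr2. Those of Cd274 and Btla passed under all 11 alternatives run. Those of Cd96 and Havcr2 kept their direction when single libraries were left out, but passed in only 4 and 2 of 6 such fits. That of Havcr2 rested on 107 allelic reads in stimulated libraries. No group held enough libraries for a search for outlying samples.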

How the results depend on the processing

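Of 141 values of the 9 genes' change in level under alternatives, 139 kept their direction and side of the threshold, and the other 2 were Btla on summed allelic counts. Havcr2 could not be fitted without any 1 unstimulated library, since it no longer passed the filter. The split of all genes called was 39.0% higher as deposited, 51.1% after median centring and 52.5% after quantile normalisation.

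Leaving out each library in turn gave 2 to 4 genes with a changed cast share, 1 to 3 of them higher and 1 to 2 lower. The log2 change of the cast to mus ratio then ranged from -0.39 to 0.44 for Pdcd1 and from -0.31 to 0.71 for Cd160. The log2 ratio itself ranged from -0.60 to 0.41 for Cd160 and -0.24 to 0.10 for Cd96 in stimulated cells, and from -0.45 to 0.20 for Havcr2 in unstimulated cells; none of these passed at any reversed value, and the cause was not tested. Cd96 in stimulated cells was also at 0.000788 with alleles scaled to equal totals. Under the replicate block, 4 genes again had a changed share, and only the departures of Pdcd1 from equal reads (-0.50 stimulated and -0.65 unstimulated) changed their call. The allelic values of Havcr2 rest on 107 stimulated and 367 unstimulated reads, and those of Cd160 on 181 stimulated and 286 unstimulated reads.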
